A study of Homo sapiens with 5 samples.

Results

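Described here are 30 genes known as transcriptional targets of p53, without those of the BCL2 family. They were listed by name, by a rule that uses no measured value, though earlier results of these data were known when they were chosen. All 30 were found by Ensembl gene ID among the 19936 genes of the 5 libraries. RNA came from LX-2, an immortalised human line of hepatic stellate cells, which make much of the scar matrix of the injured liver. All cells had been transfected with a small interfering RNA (siRNA) for 48 h, and there were 3 libraries with siRNA against LIX1L (siLIX1L) and 2 with control siRNA (siControl). LIX1L encodes a protein with a predicted domain that binds double-stranded RNA. The comparison asks how expression changes with less LIX1L in 1 cell line, and no agent that damages DNA is named in the labels of either group. Nothing in the labels ties the libraries of a group to separate cultures, so each p below sets the difference against a spread that could be purely technical. The siRNA sequences were not given in the sources used here.

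The transcription factor p53 is held low in unstressed cells by MDM2, a ubiquitin ligase whose gene is itself a p53 target. Damage to DNA, oncogene activity or ribosomal stress stabilises p53, which binds pairs of decamers in promoters and first introns and raises genes for cell cycle arrest, DNA repair, cell death and metabolism. In stellate cells of the liver, p53 and its target CDKN1A are known for their part in senescence, which limits scarring. Several of these genes also have other inducers, among them the integrated stress response for GDF15 and GADD45A. The activity of p53 in these cells was not measured, so the levels below are not taken as a readout of it.

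Levels below are in FPKM as the authors deposited it, or in RPM (reads per 1000000 of the library total), computed from the reads that the FPKM encode. Totals ran from 14856104 to 17811940 reads in siLIX1L libraries and were 14877647 and 18294056 in the controls. LIX1L had 6.60, 7.08 and 3.65 RPM in siLIX1L 1, 2 and 3, against 26.4 and 35.5 RPM in control 1 and 2, lower in every siLIX1L library. Of 13 stellate cell and fibroblast markers, 12 averaged at least 1 RPM, with summed levels of 10320 to 10917 RPM in siLIX1L and 6747 and 14256 RPM in control libraries; the exception was DES. Summed hepatocyte markers were 2.32 to 4.32 RPM in siLIX1L and 4.10 and 7.49 RPM in control libraries, with APOB, TTR and FGB at 0 reads. Summed cholangiocyte markers were 53.9 to 105 RPM in siLIX1L and 46.4 and 31.4 RPM in control libraries. Endothelial markers summed to 5.18 to 9.07 RPM in siLIX1L and 9.88 and 4.86 RPM in control libraries, and leukocyte markers to 5.73 to 9.47 RPM in siLIX1L and 10.6 and 37.8 RPM in control libraries, with TYROBP at 0 reads. Mitochondrially encoded genes took 1.08 to 1.29% of reads in siLIX1L libraries and 2.24 and 3.35% in the controls. The part of these differences in the results below was not tested, and in bulk RNA fewer cells of a type and less RNA per cell cannot be told apart. SiLIX1L 1 and 2 were much alike (chi-square per gene 5.38, against 52.7 or more for any other pair).

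The sites that p53 is known to bind were looked for in RefSeq promoter windows (GRCh38.p14), which run from 250 bases before to 50 after an annotated start. Windows were found for 23 of the 30 genes, 38 in all. Sites outside these windows, such as deeper in first introns, were not looked for. A perfect pair of p53 decamers, 0 to 13 bases apart, was in 1 of the 23 genes, DDB2, against 0.0366% of all 27305 genes with a window and 0.0285% of all 35116 windows. A single decamer was in 6 of the 23 genes (AEN, DDB2, FAS, FDXR, PLK2 and SESN1), against 8.06% of all genes and 6.63% of windows. The looser pair of decamer cores, each a C, a pair of A or T bases and a G, at the spacing of adjacent decamers with any bases around them, was in 5 of the 23 genes, against 5.85% of all genes and 4.79% of windows. Each motif reads the same on both strands, and adjacent perfect decamers always hold the core pair. Shown are the perfect pair of DDB2 and the looser core pair of GDF15, both described below. The core pairs of FAS, AEN and TRIAP1, which passed in neither limma nor edgeR, are shown too. So is that of SESN1, which edgeR did not call and limma on FPKM did not test. FDXR and PLK2, which hold only a single decamer, are not shown. Capitals mark the paired decamers, and the number of bases that fit the p53 consensus follows in the next sentences.
DDB2 (chr11:47214975-47215004, plus strand): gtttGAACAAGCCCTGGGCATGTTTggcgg
GDF15 (chr19:18386178-18386207, plus strand): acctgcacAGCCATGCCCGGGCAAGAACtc
FAS (chr10:88991304-88991333, plus strand): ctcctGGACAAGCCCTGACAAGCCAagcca
SESN1 (chr6:109009013-109009042, minus strand): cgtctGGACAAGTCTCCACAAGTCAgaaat
AEN (chr15:88621301-88621330, plus strand): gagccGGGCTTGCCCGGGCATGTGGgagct
TRIAP1 (chr12:120446335-120446364, minus strand): tgtgggggAGGCATGCACGGACATGAAGcg
Of 20 decamer positions, 20 fit in DDB2, where 1 base separates the decamers, 18 in FAS and AEN, 17 in GDF15 and SESN1 and 16 in TRIAP1. The sites of FAS, SESN1 and AEN begin 122, 49 and 34 bases before the start, and those of DDB2, GDF15 and TRIAP1 lie just after it, at bases 6, 29 and 29. Sequence alone does not show that p53 was bound there in these cells.

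Among the p53 targets the clearest differences were lower levels of DDB2, a damage sensor of DNA repair, and of GDF15, a secreted stress cytokine, after LIX1L siRNA. GADD45A, a stress-induced growth arrest gene, had a lower mean too, but its controls differed 5.32-fold from each other. Most other targets, CDKN1A and MDM2 among them, were not called. CCNG1, TIGAR, FBXW7, XPC and, narrowly, TRIAP1 were higher in each siLIX1L library than in both controls, without a call. CDKN1A, FDXR, TP53I3, PHLDA3 and SESN1 were lower in each, and with all libraries only FDXR of these was called, by DESeq2. Of all genes with a mean of at least 1 RPM, 22.7% were higher in this way and 21.7% lower. Limma on log2(FPKM + 1) covered the 16 members that reached 1 FPKM in at least 2 libraries and called 1 of them, DDB2, which fell, where 1.87% of the 6464 genes tested were called and 1.13% were called lower. No member was called higher, against 0.743% of all genes. At an unadjusted limma p under 0.05 were 6 of the 16, against 1785 of all 6464 genes, and CCNG1 was the only higher one of the 6. Of the 16, GDF15 reached the minimum in control libraries alone and RRM2B in siLIX1L libraries alone. The other 14 members stayed under it, which is strict because the deposited FPKM divides by the whole gene with its introns. EdgeR on the recovered reads, which covered 29 members, called DDB2 and GDF15 lower and none higher, with 1.44% of 13026 genes called, 0.883% lower and 0.56% higher. DESeq2 called FDXR lower as well and none higher, against 12.5% of the 13334 genes for which it gave an adjusted p, 6.22% lower and 6.32% higher. Limma on log2(RPM + 0.5) called GDF15 alone, lower, where 1.01% of 12585 genes were called, 0.532% lower and 0.477% higher.

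Of the 29 members with a mean of at least 1 RPM, 13 (44.8%) had siLIX1L and control libraries that did not overlap, and in all genes of that level the share was 44.4%. The share among the members was thus near that of all genes. In 5 members all siLIX1L libraries were higher (22.7% of all genes) and in 8 all were lower (21.7% of all genes). The median log2 ratio of mean RPM was -0.32 over the members and -0.02 over all 12436 genes of that level, with 16 members negative and 13 positive. By role, that median was 0.18 for 9 genes of arrest and p53 feedback, 0.28 for 4 of repair, -0.32 for 9 of death and survival and -0.40 for 7 of metabolism and secretion. Those medians describe the genes chosen and were not tested.

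**Figure D1:**
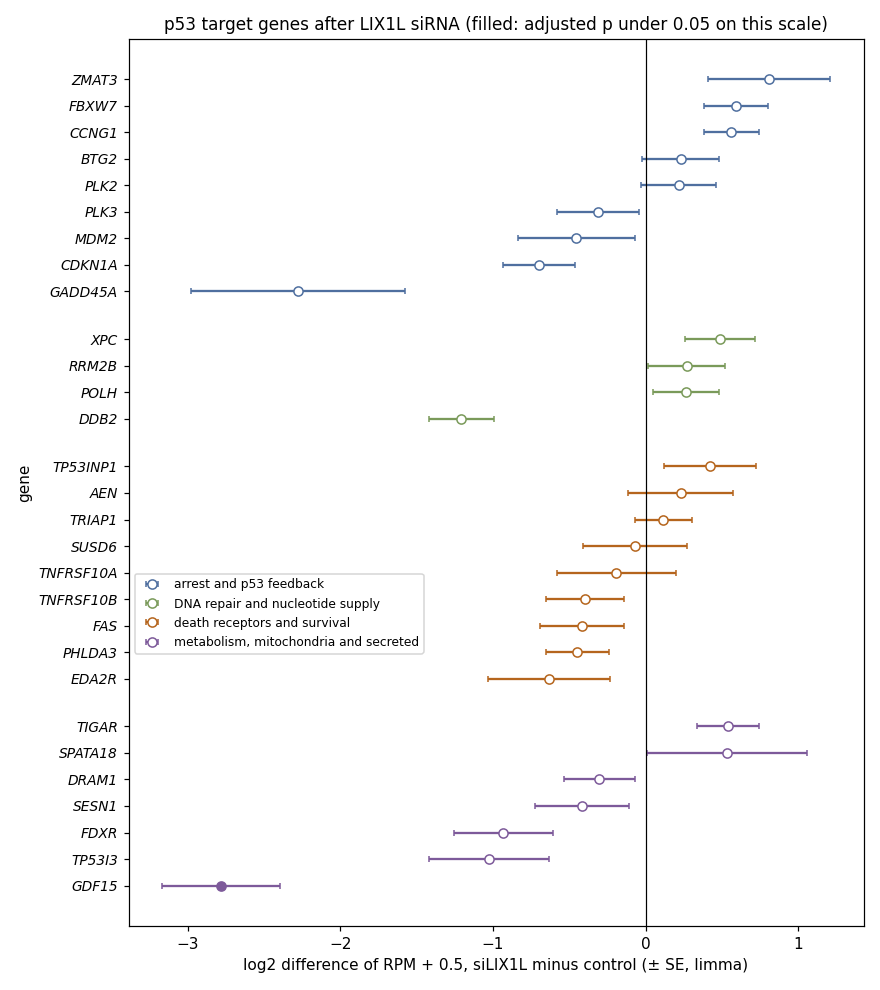
Log2 difference in RPM + 0.5 (x axis, siLIX1L minus control, with limma's SE) for the 29 p53 target genes (y axis) with at least 1 RPM in at least 2 libraries, coloured by role; filled points passed an adjusted p of 0.05 on this scale. GDF15 at -2.78, GADD45A at -2.28 and DDB2 at -1.21 lie farthest to the left, and ZMAT3 at 0.81 farthest to the right; GDF15 is the filled point, and DDB2 (adjusted p = 0.0514 here) was called on the FPKM scale.

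GADD45A (ENSG00000116717, GRCh38 chromosome 1, 67685061 to 67688338, plus strand), a stress sensor that binds CDK1 and PCNA, had the largest difference of the arrest group. It had 64.4, 61.4 and 154 RPM in siLIX1L 1, 2 and 3, against 954 and 179 RPM in control 1 and 2. All siLIX1L libraries were under both controls, but siLIX1L 3 was close to control 2, and control 1 was far above everything else. The 6.07-fold lower mean was 1.92-fold without control 1 and 10.2-fold without control 2. Neither limma (difference -2.24, SE 0.73, adjusted p = 0.117) nor edgeR (log2 fold change -2.58, adjusted p = 0.0815) called it. CDKN1A (ENSG00000124762, GRCh38 chromosome 6, 36676460 to 36687339, plus strand) encodes p21, the inhibitor of cyclin-dependent kinases that carries the arrest by p53. It had 65.0, 61.8 and 44.5 RPM in siLIX1L, against 82.0 and 103 RPM in control libraries. The groups did not overlap, and the 1.62-fold lower mean was not called (limma difference -0.61, SE 0.20, adjusted p = 0.117; edgeR adjusted p = 0.113). The antisense RNA DINOL overlaps CDKN1A, and reads of overlapping genes could not be told apart because the strand setting was not given in the sources used here; 16 of the 30 members have such a partner.

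MDM2, the ligase that degrades p53, had 57.5, 52.2 and 23.9 RPM in siLIX1L 1, 2 and 3, against 64.6 and 50.6 RPM in control 1 and 2. Only siLIX1L 3 stood apart, at a lower level, and the groups overlapped (limma adjusted p = 0.497). CCNG1, cyclin G1, which recruits a phosphatase to MDM2, had 295, 305 and 261 RPM in siLIX1L against 183 and 206 RPM in control libraries. All siLIX1L libraries were higher, 1.48-fold in the mean, and CCNG1 was not called (limma difference 0.54, SE 0.17, adjusted p = 0.110). FBXW7, which marks cyclin E and MYC for degradation, had 512, 438 and 465 reads in siLIX1L against 291 and 356 reads in control libraries, 1.53-fold higher in mean RPM without a call (edgeR adjusted p = 0.133). ZMAT3, an RNA-binding zinc finger protein, had 28.7 and 29.1 RPM in siLIX1L 1 and 2 but 12.5 RPM in siLIX1L 3, inside the control range of 10.4 and 14.6 RPM.

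BTG2, PLK2 and PLK3 complete the arrest group, and the groups overlapped in each. BTG2, which slows proliferation through mRNA deadenylation, averaged 9.54 ± 0.634 RPM in siLIX1L (SD, n = 3) and 8.15 ± 1.93 RPM in control libraries (SD, n = 2). PLK2, a polo-like kinase, averaged 293 ± 22.9 RPM in siLIX1L (SD, n = 3) and 259 ± 89.4 RPM in control libraries (SD, n = 2). PLK3, another polo-like kinase, averaged 17.5 ± 1.05 RPM in siLIX1L (SD, n = 3) and 22.6 ± 8.28 RPM in control libraries (SD, n = 2), where control 1 alone was high at 28.4 RPM.

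DDB2 (ENSG00000134574, GRCh38 chromosome 11, 47214465 to 47239240, plus strand) encodes the subunit that recognises ultraviolet lesions in nucleotide excision repair. It had 0.810, 0.802 and 1.04 FPKM in siLIX1L 1, 2 and 3, against 2.20 and 1.92 FPKM in control 1 and 2. The highest siLIX1L library thus lay well under the lowest control, and both groups were tight. SiLIX1L 1 and 2, much alike over all genes, were nearer to each other than to siLIX1L 3. In reads the DDB2 values were 298, 300 and 461 after LIX1L siRNA and 811 and 871 in the controls. The mean was 21.9 ± 3.42 RPM (SD, n = 3) in siLIX1L and 51.1 ± 4.88 RPM (SD, n = 2) in control cells, 2.33-fold lower. The fall was 0.70 on the log2(FPKM + 1) scale (difference -0.70, SE 0.12, limma adjusted p = 0.0450) and was also called by edgeR (log2 fold change -1.23, adjusted p = 0.0478). Dropping any siLIX1L library ended the call (limma adjusted p = 0.0715 to 0.245), as did averaging siLIX1L 1 and 2 (limma adjusted p = 0.209). In each of those fits limma called 0 genes in all, so the loss is not particular to DDB2. The RPM scale ended the DDB2 call too (limma adjusted p = 0.0514). Without any 1 library the mean RPM was 2.17- to 2.56-fold lower. AC018410.2 overlaps DDB2 on the other strand.

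The other genes of repair and nucleotide supply did not share that direction. XPC, which detects distorted DNA at the start of the same repair pathway, had 18.5, 18.6 and 21.2 RPM in siLIX1L 1, 2 and 3, against 15.9 and 11.8 RPM in control 1 and 2. Its groups did not overlap, and edgeR did not call it (log2 fold change 0.49, adjusted p = 0.226). POLH, the polymerase that copies past ultraviolet lesions, averaged 31.2 ± 4.72 RPM in siLIX1L (SD, n = 3) and 25.8 ± 2.60 RPM in control libraries (SD, n = 2), with overlap. RRM2B, the p53-induced subunit of ribonucleotide reductase, averaged 36.9 ± 8.49 RPM in siLIX1L (SD, n = 3) and 30.1 ± 4.38 RPM in control libraries (SD, n = 2), also with overlap. DDB2 thus fell, and the other 3 genes had higher means. EdgeR called none of those 3. Limma on log2(FPKM + 1) tested only RRM2B among them and did not call it.

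No death receptor was called by limma, edgeR or DESeq2, though limma on log2(FPKM + 1) tested only FAS and TNFRSF10B of those below. FAS, the receptor of FAS ligand, had 25.3, 20.2 and 15.8 RPM in siLIX1L 1, 2 and 3, against 22.4 and 32.4 RPM in control 1 and 2 (limma adjusted p = 0.369). It overlaps ACTA2 on the other strand. TNFRSF10B, a receptor of the death ligand TRAIL, had 153, 148 and 241 RPM in siLIX1L against 250 and 216 RPM in control libraries. SiLIX1L 3 lay among the controls and siLIX1L 1 and 2 below them (limma adjusted p = 0.362). TNFRSF10A, the other TRAIL receptor with a death domain, had 37 to 54 reads in siLIX1L and 76 and 38 reads in control libraries. TNFRSF10C, a decoy receptor without a death domain, had 1, 1 and 0 reads in siLIX1L and 2 and 3 reads in control libraries, at or under the 3 reads that a count of 0 allows, so no fold is given. These receptors are close relatives, and how the authors counted reads shared between them was not stated. EDA2R, a receptor of ectodysplasin A2, had 18, 21 and 14 reads in siLIX1L against 47 and 22 reads in control libraries, where control 1 alone was high.

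Of the genes that act downstream in death and survival, PHLDA3, which blocks AKT at the membrane, had 37.8, 34.6 and 47.4 RPM in siLIX1L against 56.0 and 52.4 RPM in control libraries. The groups did not overlap, and the difference of -0.41 (SE 0.18) was not called (limma adjusted p = 0.193). AEN, a nuclease that promotes cell death, had 42.3, 46.4 and 51.5 RPM in siLIX1L, between control 2 at 26.0 RPM and control 1 at 60.5 RPM. The limma difference of AEN was 0.64 without control 1 and -0.31 without control 2. TP53INP1, a stress-induced partner of p53, averaged 22.3 ± 5.68 RPM in siLIX1L (SD, n = 3) and 16.7 ± 5.58 RPM in control libraries (SD, n = 2), with overlap. TRIAP1, a mitochondrial inhibitor of cell death, averaged 28.8 ± 0.495 RPM in siLIX1L (SD, n = 3) and 26.5 ± 2.06 RPM in control libraries (SD, n = 2), narrowly without overlap (limma adjusted p = 0.667). SUSD6, a membrane protein, had 73.7, 77.6 and 41.2 RPM in siLIX1L, against 82.9 and 50.9 RPM in control libraries, with overlap.

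GDF15 (ENSG00000130513, GRCh38 chromosome 19, 18374731 to 18389176, plus strand) encodes a cytokine of the TGF-β superfamily that acts on the receptor GFRAL in the hindbrain and reports cell stress. It had 108, 104 and 138 reads in siLIX1L 1, 2 and 3, against 1272 and 603 reads in control 1 and 2. The siLIX1L libraries were nearly equal, at 7.27, 6.89 and 7.75 RPM, and both controls were far above them at 85.5 and 33.0 RPM. The mean was 8.11-fold lower in siLIX1L, 4.51-fold without control 1 and 11.7-fold without control 2. The difference of -1.66 on the log2(FPKM + 1) scale (SE 0.29) did not pass in limma (adjusted p = 0.0502). GDF15 entered that test only through the 2 controls, since no siLIX1L library reached 1 FPKM, and it was not tested there without either control. It passed in edgeR (log2 fold change -3.01, adjusted p = 0.0353), in DESeq2 (adjusted p = 6.26e-11) and in limma on log2(RPM + 0.5), at -2.78 (SE 0.39, adjusted p = 0.0379). On log2(FPKM + 1), averaging siLIX1L 1 and 2 gave a limma adjusted p of 0.182. Dropping any siLIX1L library gave a limma adjusted p of 0.0898 to 0.228. Limma called 0 genes in all in each of those fits. EdgeR, DESeq2 and the RPM scale were not run that way. Per kilobase of its longest coding transcript, GDF15 averaged 6.08 RPM after LIX1L siRNA and 49.4 RPM in control cells.

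The metabolic and mitochondrial targets were otherwise mixed. FDXR, the mitochondrial ferredoxin reductase, had 19.7, 18.3 and 21.7 RPM in siLIX1L 1, 2 and 3, against 26.1 and 56.1 RPM in control 1 and 2. The controls stood further apart than control 1 did from the siLIX1L libraries. FDXR was 2.07-fold lower in mean RPM, 2.82-fold without control 1 and 1.31-fold without control 2. It was not called by limma (adjusted p = 0.139) or edgeR (adjusted p = 0.110), but was by DESeq2 (adjusted p = 0.0384). The limma difference of FDXR was -1.13 without control 1 and -0.27 without control 2. TP53I3, a quinone oxidoreductase linked to oxidative stress, had 4.04, 3.44 and 6.06 RPM in siLIX1L, against 13.9 and 6.40 RPM in the controls. Its siLIX1L 3 value almost reached control 2, and its 2.25-fold lower mean became 1.42-fold without control 1 and 3.08-fold without control 2 (edgeR adjusted p = 0.138). A gene on the other strand, FAM228B, overlaps TP53I3. TIGAR, a phosphatase that slows glycolysis, went the other way, with 39.6, 35.8 and 32.4 RPM in siLIX1L against 26.8 and 22.3 RPM in control libraries, 1.46-fold higher without a call (edgeR adjusted p = 0.142).

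The remaining genes of this group were not called. SESN1, a sestrin that restrains mTORC1, averaged 8.25 ± 2.43 RPM in siLIX1L (SD, n = 3) and 10.8 ± 0.727 RPM in control libraries (SD, n = 2), without overlap and without a call (edgeR adjusted p = 0.428). DRAM1, a lysosomal membrane protein of autophagy, averaged 78.7 ± 12.2 RPM in siLIX1L (SD, n = 3) and 97.9 ± 23.1 RPM in control libraries (SD, n = 2), with overlap. SPATA18, a mitochondrial quality control gene, had 45, 42 and 11 reads in siLIX1L 1, 2 and 3, against 18 and 19 reads in the controls. Its higher mean rested on siLIX1L 1 and 2.

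**Figure D2:**
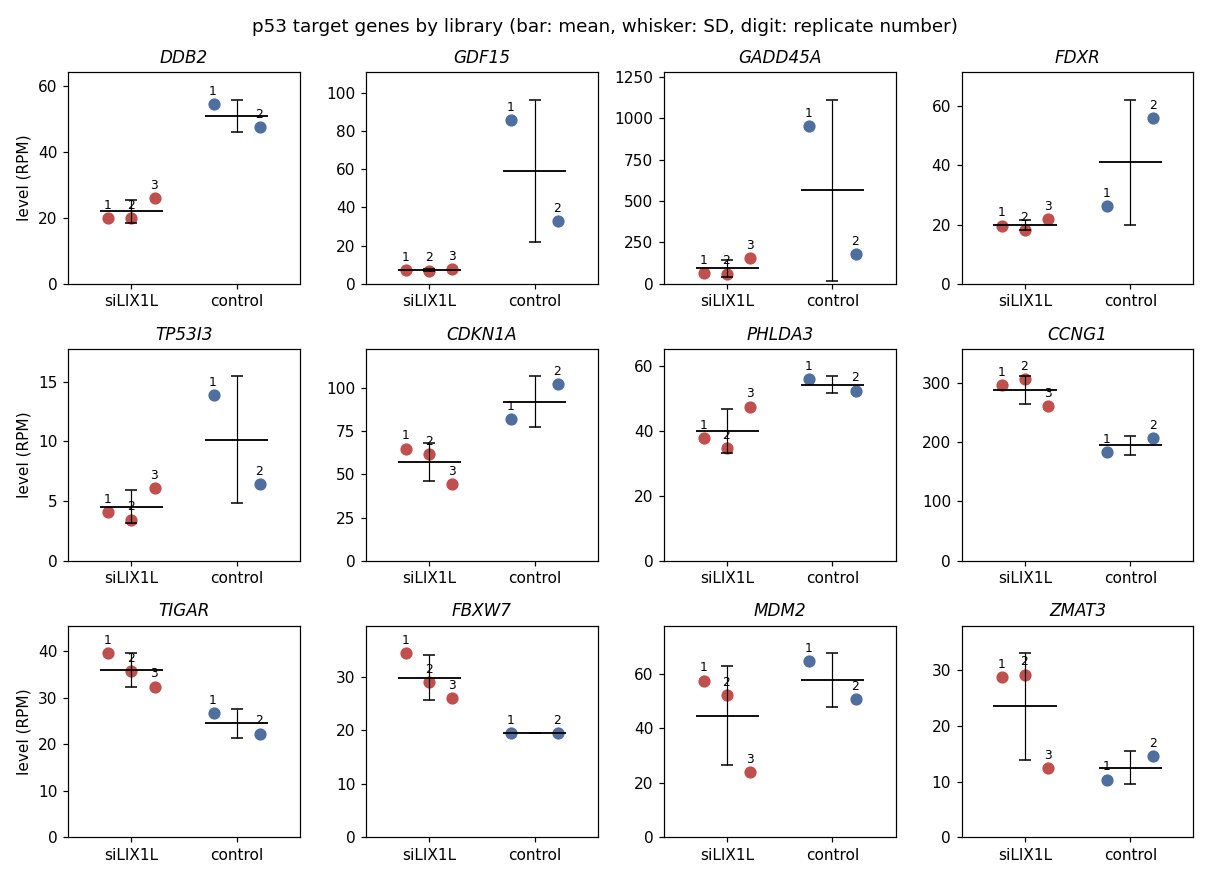
RPM (y axis, linear, from 0) of 12 p53 target genes in each siLIX1L and control library (x axis), with the mean (bar) and SD (whisker) of each group and the replicate number above each point. DDB2 separates cleanly with tight groups, GDF15 is evenly low in siLIX1L with controls at 85.5 and 33.0 RPM, and GADD45A, FDXR and TP53I3 show controls far apart.

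The members differed within each group as well as between groups. Control 1 exceeded control 2 by over 2-fold in GADD45A, EDA2R, GDF15, TNFRSF10A, AEN and TP53I3, and control 2 exceeded control 1 by that much in FDXR. These are 7 of 29 members (24.1%), and 13.2% of all genes of that level had such a gap. Among the siLIX1L libraries, replicate 3 was over 1.5 times the mean of replicates 1 and 2 in GADD45A, TP53I3, TNFRSF10B and TP53INP1. It was lower by over 1.5 times in SPATA18, ZMAT3, MDM2, SUSD6, SESN1 and EDA2R. The median deviation from the gene mean over the members was 0.04, 0.04 and -0.12 in siLIX1L 1, 2 and 3 and 0.26 and 0.01 in control 1 and 2, highest in control 1, while over all genes every library was within -0.05 and 0.03.

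**Figure D3:**
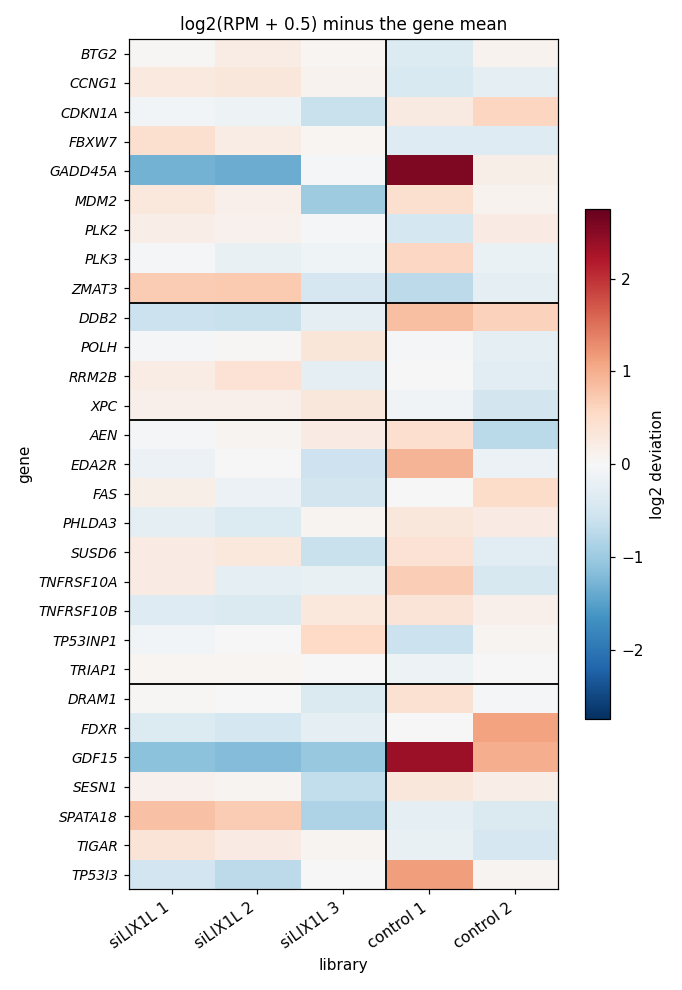
Colour shows log2(RPM + 0.5) minus the mean of that gene in the 5 libraries, for the 29 members with a mean of at least 1 RPM (y axis, grouped by role in the order arrest and feedback, repair, death and survival, metabolism) in each library (x axis). GADD45A and GDF15 are darkest in control 1, and MDM2, ZMAT3 and SPATA18 set siLIX1L 3 apart from siLIX1L 1 and 2.

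Per kilobase of the longest coding transcript (GENCODE 29), the highest member after LIX1L siRNA was CCNG1 at 117 ± 9.48 RPM per kilobase, followed by PLK2 at 99.0 ± 7.74, GADD45A at 62.3 ± 35.2, TNFRSF10B at 43.6 ± 12.7 and CDKN1A at 25.2 ± 4.86 (SD, n = 3). In the controls the same scale gave GADD45A at 379 ± 366, PLK2 at 87.6 ± 30.2, CCNG1 at 79.0 ± 6.58, TNFRSF10B at 56.2 ± 5.90, GDF15 at 49.4 ± 31.0 and CDKN1A at 40.7 ± 6.46 (SD, n = 2). Among neighbours in the control order, only CCNG1 and TNFRSF10B differed by more than the sum of their SDs. In siLIX1L cells CCNG1 and PLK2, and TNFRSF10B and CDKN1A, did so, and the other neighbours did not. The lowest were TNFRSF10C, EDA2R and SPATA18, each under 1 RPM per kilobase in both groups. The counting tool was not given, so reads in introns may be part of these values. Their effect on the order of genes was not tested.

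MDM4, which inhibits p53 as a partner of MDM2, averaged 37.2 ± 2.55 RPM in siLIX1L (SD, n = 3) and 37.8 ± 3.20 RPM in control libraries (SD, n = 2). Of 22 regulators of p53, limma tested 9 and called none, with 1 at an unadjusted p under 0.05, where 1785 of all 6464 genes tested were under it. EdgeR also called none of 21, with 5 at an unadjusted p under 0.05, against 3395 of all 13026 genes. DESeq2 called 5 of 21, with HIPK2, EP300, ATM and TP53BP1 higher and CHEK2 lower, where it called 12.5% of all genes, 6.32% higher and 6.22% lower. The smallest p in limma were those of EP300, an acetyltransferase that coactivates p53, at 126 ± 16.6 RPM in siLIX1L against 62.8 ± 23.5 RPM in control libraries (limma adjusted p = 0.0826), USP7, a protease that removes ubiquitin from MDM2 and p53, at 166 ± 6.85 RPM in siLIX1L against 125 ± 3.33 RPM in control libraries (limma adjusted p = 0.187), and CDKN2A, whose product ARF binds MDM2, at 142 ± 11.9 RPM in siLIX1L against 173 ± 1.21 RPM in control libraries (limma adjusted p = 0.301), with SDs over n = 3 and n = 2. MDM4, EP300, USP7 and CDKN2A all have an overlapping gene on the other strand.

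Of 43 further genes known to be induced by p53, limma tested 28 and called 2, both lower, and none higher, where 1.87% of all genes were called, 1.13% lower and 0.743% higher. At an unadjusted limma p under 0.05 there were 7 of the 28, against 1785 of all 6464 genes. PLTP, which transfers phospholipids between lipoproteins, had 17.9, 18.1 and 14.5 RPM in siLIX1L 1, 2 and 3, against 48.9 and 62.8 RPM in control 1 and 2. It was 3.31-fold lower (limma difference -1.18, SE 0.14, adjusted p = 0.0384), though CTSA overlaps it on the other strand. IGFBP3, which binds insulin-like growth factors, had 581, 590 and 516 reads in siLIX1L against 1514 and 2639 reads in control libraries and was 3.44-fold lower in mean RPM (limma difference -1.54, SE 0.20, adjusted p = 0.0384). Both genes separated the groups by more than the spread within either, and edgeR called both as well and no other of 40, with 1.44% of all genes called. Limma called neither when any siLIX1L library was left out, with 0 calls in the list and 0 genes called in all. DESeq2 called 5 of 40, with PLTP, IGFBP3 and BTG1 lower and TLR3 and TRIM22 higher, a share equal to the 12.5% it called of all genes. Of the 39 with a mean of at least 1 RPM, 27 had a lower and 12 a higher mean, with a median log2 ratio of -0.22, and 17 separated the groups (43.6%, against 44.4% of all genes).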

How the data were processed

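RNA-seq of 3 siLIX1L and 2 control libraries of LX-2 cells was used, grouped by the siRNA in their titles. The authors deposited FPKM for 19936 human Ensembl genes in each library, per the file headers; for siLIX1L 3 they also deposited gene lengths and raw read counts. Bowtie 0.12.2, which does not split reads over exon borders, and the mouse build mm8 are named in the submitters' processing notes, and mm8 is at odds with human IDs. The build, counting tool, strandedness and batches were not given in the sources used here. Deposited lengths equalled GENCODE 29 (GRCh38) gene spans, introns included, in 98.2% of 19926 matched genes, and coordinates follow that annotation. FPKM is therefore low for genes with long introns, which bears on the minimum and the pseudocount but not on the ratio of a gene between libraries.

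FPKM times length gave whole reads, within 0.01, for 100% of values, and these equalled the deposited counts for all 19936 genes of siLIX1L 3. Where no read was seen, up to 3 reads remain possible (0.164 to 0.202 RPM, counting error only). Since FPKM is the unit common to all files, limma 3.58.1 (R 4.3.3; moderated with an intensity trend and robust settings; two-sided; Benjamini-Hochberg over all genes; threshold 0.05) was run on log2(FPKM + 1), keeping genes that reached 1 FPKM in 2 or more libraries. Differences on that log2 scale, computed from the deposited FPKM, understate the change of low genes. Plain fold values are mean RPM of one group over the other. EdgeR 4.0.16 (quasi-likelihood, TMM, filterByExpr), DESeq2 1.42.0 and limma on log2(RPM + 0.5) were alternatives, as were other minima, pseudocounts and scalings, the replicate block, averaging of siLIX1L 1 and 2, and leaving out each library. The main limma fit, edgeR and DESeq2 were tested on simulated counts with planted changes, drawn as independent libraries of equal spread. That setting lacks the closeness of siLIX1L 1 and 2, and the other steps were not simulated.

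Named are all 30 members, LIX1L, MDM4 and, of the regulators and further p53-induced genes, those past the threshold or else the 3 with the smallest p; the genes of these lists that only DESeq2 called were named after their values were seen. The rule also names 1 gene that is not reported here. Members and lists were chosen with earlier results of these data known. Motifs were searched with Python 3.11.15, and 19808 IDs had a symbol.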

Additional observations from a re-analysis of the deposited data

How the results depend on the processing

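Limma called 121 genes, 1 member, 0 regulators and 2 further p53-induced genes. The cause of the changes below was not tested, apart from fewer genes or samples in the settings that remove them. Without a minimum level limma called 0 genes in all, 0 members and 0 further genes (3407 genes had an unadjusted p under 0.05), and with a minimum of 5 FPKM, which DDB2 does not reach, 0 members and 1 further gene. A pseudocount of 0.1 and quantile normalization each called 2 members, DDB2 and GDF15, beside 156 and 173 genes in all. EdgeR called 188 genes and 2 members, and DESeq2 1673 genes, 3 members, 5 regulators and 5 further genes. With siLIX1L 1 and 2 averaged the counts were 0 genes, 0 members and 0 further genes. Leaving out each library in turn gave 0 to 1517 genes, 0 to 3 members, 0 to 2 regulators and 0 to 5 further genes; the lone control left in 2 of these fits is assumed to vary like the siLIX1L group, and control 1 was the library left out at each highest count. With the replicate number as a block, 94 genes in all and 2 members were called, GADD45A (limma adjusted p = 0.0409) and GDF15 (limma adjusted p = 0.0239), and DDB2 was not (limma adjusted p = 0.0591). Same-numbered libraries had correlations of their deviations of -0.12 and -0.10 over genes, and nothing in the labels pairs them. DDB2 was lower in 14 of 14 other settings and past the threshold in 7, with adjusted p from 2.19e-04 to 0.245 over limma, edgeR and DESeq2. GDF15, which limma's minimum admits only through the controls, was tested in 12 other settings and past the threshold in 6, with adjusted p from 6.26e-11 to 0.228 over limma, edgeR and DESeq2. The difference reversed in PLK2 (-0.14 without control 1, 0.56 without control 2), PLK3 (0.047 and -0.56) and AEN (0.64 and -0.31); none of these was called with all libraries. Over all settings, 201 values for single members kept their direction and side of the threshold, 10 newly passed it, 7 no longer passed and 3 reversed. Depth limits TNFRSF10C most, with at most 3 reads a library.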
